A study of Mus musculus with 9 samples.

Results

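The uterine gland genes *Spink3*, *Prss28*, *Prss29*, *Foxa2* and *Sox9* were followed in the mouse uterus during the receptive phase. They were taken by symbol from a table of 31274 entries, so 5 of 31274 entries are described here, 3 secretory products (*Spink3*, *Prss28*, *Prss29*) and 2 transcription factors (*Foxa2*, *Sox9*). The 5 genes were chosen with the difference between the genotypes already known, and their levels and differences are therefore given as a description, without a test.

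Whole uteri of C57BL/6 mice were collected on day 4.5 of pseudopregnancy for RNA-Seq, and each mouse gave 1 library. The 4 Wnk1f/f control mice carried *Wnk1* alleles with loxP sites around exon 2. The 5 Wnk1d/d mice carried the same floxed alleles together with Cre expressed from the progesterone receptor gene, which removes exon 2 of *Wnk1*, a kinase gene, in the cells that express that receptor. Such cells lie in the epithelium, stroma and muscle of the uterus, and also in the ovary and pituitary, so the deletion was not limited to glands. The genotype given for the Wnk1f/f controls holds no Cre allele. Loss of *Wnk1* and presence of the Cre allele therefore cannot be told apart here. All females were young adults and had been mated to vasectomized wild-type males, so that no embryo was present.

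Uterine glands are epithelial tubes that reach from the lumen into the stroma and secrete proteins that the embryo needs in order to implant. FOXA2, a forkhead transcription factor, and SOX9, an HMG-box transcription factor, are nuclear proteins of the gland epithelium, and FOXA2 is required for glands to form and to function. SPINK3 is a small secreted inhibitor of trypsin-like proteases that is also made by the pancreas and by male accessory glands. PRSS28 and PRSS29, also known as implantation serine proteinases, are secreted proteases related to the tryptases of mast cells, and both are known as products of uterine glands under progesterone.

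The values are FPKM, fragment counts scaled to the exon length of a gene and to the number of fragments in its library, so that levels of different genes can be set beside each other. Absolute depth is unknown. The steps between low values, which show what 1 fragment is worth, differed by up to 1.40 times between libraries over 20 entries. *Wnk1* was lower in each Wnk1d/d library, at 29.9 to 33.9 FPKM against 43.4 to 47.3 FPKM in Wnk1f/f (log2 difference -0.52, limma adjusted p = 0.0017). Wnk1f/f replicate 4 stood apart in liver transcripts, with *Alb* (albumin) at 77.7 FPKM against 1.5 FPKM or less in the other 8 libraries, and Wnk1d/d replicate 1 stood apart in the secretory products themselves. In Wnk1d/d replicate 4 a single entry held 70.3% of the summed FPKM, but the median log2(FPKM + 1) of the genes tested was 3.79 there and at most 3.82 in the other libraries. Without Wnk1f/f replicate 4 the log2 differences of the 5 genes, in the order named above, were -2.59, -2.52, -1.36, 0.19 and 0.52, and without Wnk1d/d replicate 1 they were -2.35, -2.31, -1.13, 0.24 and 0.62. From bulk RNA alone, fewer gland cells and less RNA of a gene per gland cell cannot be told apart. The authors separately counted glands and reported more per cross section in Wnk1d/d than in Wnk1f/f uteri. The part of gland number in the levels given here was not tested.

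*Prss28* and *Prss29* are neighbours on chromosome 17, read in the same direction. On mm10 (GENCODE release M21) *Prss28* spans chr17:25308646-25311876 and *Prss29* chr17:25318654-25322684, both on the plus strand with 6 exons, and 6777 bases separate them. Their transcripts were identical at 767 of 1117 aligned bases (68.7%), and no stretch of 75 bases, the read length, was shared by the transcript of any of the 5 genes with another gene, so reads of the 5 genes could be told apart. The 170 bases before each start site are printed from RefSeq (GRCm38.p6, plus strand, chr17:25308476-25308645 for *Prss28* and chr17:25318484-25318653 for *Prss29*), because the genes lie side by side and their levels moved together across libraries. Capitals mark the stretches of at least 10 bases that both share within these bases.
Prss28: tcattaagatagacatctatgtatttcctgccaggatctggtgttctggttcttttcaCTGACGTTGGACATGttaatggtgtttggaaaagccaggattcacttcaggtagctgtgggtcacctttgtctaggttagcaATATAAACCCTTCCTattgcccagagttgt
Prss29: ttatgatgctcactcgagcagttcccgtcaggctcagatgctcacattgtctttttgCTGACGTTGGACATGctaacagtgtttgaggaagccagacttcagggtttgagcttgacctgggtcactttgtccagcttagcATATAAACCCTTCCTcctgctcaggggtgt

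The shared stretches were CTGACGTTGGACATG, which begins at position -112 from the start of *Prss28* and at position -113 from that of *Prss29*, and ATATAAACCCTTCCT, which begins at position -30 in both. Each was 15 bases long and was found in 2 of 32851 promoter windows of 300 bases, which are these windows alone. The second holds a TATA box (TATAAA, gene strand), a sequence that 8.32% of all windows contain. Over the 250 bases before the start, *Prss28* and *Prss29* were identical at 161 of 225 aligned bases (71.6%), compared with 56.2% to 65.2% between *Prss28* and the 8 other protease genes of the cluster that had a window. The forkhead sequences TGTTTAC and TGTTTGC, searched on both strands and present in 3.65% and 5.07% of all windows, had no match in the windows of *Prss28*, *Prss29* or *Foxa2*. The SOX sequence ACAATG (both strands, 12.6% of windows) had 1 match, in *Prss29*, and TGTTCT, a hexamer that the progesterone receptor can bind (both strands, 19.0% of windows), had 1 match, in *Prss28*. TGACG, the core of a cAMP response element (both strands, 20.8% of windows), had 3 matches in *Prss28* and 2 in *Prss29*, of which 1 in each lies within the first shared stretch, and 1 in *Foxa2*. These matches describe the letters of the windows and not binding.

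*Spink3* was the most abundant of the 5 genes in Wnk1f/f uteri and ranked 9th of the 31274 entries there. It lies on chromosome 18 (mm10, 43728082 to 43737557, minus strand, 4 exons), where GENCODE names it Spink1. The 4 Wnk1f/f libraries held 5229, 3876, 3521 and 4363 FPKM in replicates 1 to 4, and the 5 Wnk1d/d libraries held 332, 863, 719, 735 and 1015 FPKM in replicates 1 to 5. Each Wnk1d/d library lay below each Wnk1f/f library, and Wnk1d/d replicate 1 was the lowest. The means were 4247 ± 740.0 FPKM (SD, n = 4) and 733 ± 254 FPKM (SD, n = 5), which is 5.80-fold lower in Wnk1d/d (log2 difference -2.61, standard error 0.30), and 5.10-fold lower without Wnk1d/d replicate 1. Its rank in Wnk1d/d uteri was 86.

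*Prss28*, the less abundant of the paired proteases, differed the most in ratio of the 5 genes. Wnk1f/f replicates 1 to 4 held 1341, 642, 432 and 1395 FPKM, and Wnk1d/d replicates 1 to 5 held 35.6, 207, 172, 146 and 163 FPKM. The Wnk1f/f libraries lay in an upper pair and a lower pair, and the lower pair was still above each Wnk1d/d library. The means were 953 ± 488 FPKM (SD, n = 4) and 145 ± 64.9 FPKM (SD, n = 5), 6.58-fold lower in Wnk1d/d (log2 difference -2.75, standard error 0.54) and 5.54-fold lower without Wnk1d/d replicate 1. *Prss28* ranked 47th in Wnk1f/f and 563rd in Wnk1d/d uteri.

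*Prss29* was among the most abundant transcripts of the Wnk1d/d uterus, at rank 35 against rank 13 in Wnk1f/f. Wnk1f/f replicates 1 to 4 held 3808, 3135, 2624 and 4629 FPKM, and Wnk1d/d replicates 1 to 5 held 439, 1583, 1719, 1525 and 1527 FPKM. Replicates 2 to 5 of Wnk1d/d were close to each other, replicate 1 was far below them, and the genotypes did not overlap. The means were 3549 ± 868 FPKM (SD, n = 4) and 1358 ± 519.8 FPKM (SD, n = 5), 2.61-fold lower in Wnk1d/d (log2 difference -1.5, standard error 0.39). Without Wnk1d/d replicate 1 the Wnk1d/d mean was 1588 ± 90.9 FPKM (SD, n = 4), and the difference was 2.23-fold.

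The transcription factors were not lower in Wnk1d/d uteri. *Foxa2* (chromosome 2, mm10, 148042877 to 148046969, minus strand, 3 exons) was at 4.17, 6.00, 7.48 and 5.66 FPKM in Wnk1f/f replicates 1 to 4 and at 5.86, 7.32, 5.30, 7.84 and 7.60 FPKM in Wnk1d/d replicates 1 to 5. The genotypes overlapped across most of their range. The means were 5.83 ± 1.36 FPKM (SD, n = 4) and 6.78 ± 1.13 FPKM (SD, n = 5), a ratio of 1.16 (log2 difference 0.20, standard error 0.15).

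*Sox9* (chromosome 11, mm10, 112782224 to 112787760, plus strand, 3 exons) was at 10.4, 14.8, 15.4 and 12.6 FPKM in Wnk1f/f replicates 1 to 4 and at 15.7, 22.9, 18.6, 23.4 and 18.6 FPKM in Wnk1d/d replicates 1 to 5. The genotypes did not overlap, but the highest Wnk1f/f library (15.36 FPKM) and the lowest Wnk1d/d library (15.66 FPKM) nearly met. The means were 13.3 ± 2.27 FPKM (SD, n = 4) and 19.8 ± 3.28 FPKM (SD, n = 5), a ratio of 1.49 (log2 difference 0.54, standard error 0.14). The libraries of the genotypes did not overlap for 2924 of the 14728 genes tested, which is 19.9%, and *Sox9* and the 3 secretory products are 4 of the 5 genes here for which this held. Since the genes were chosen on this difference, nothing is read from that count.

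**Figure D1:**
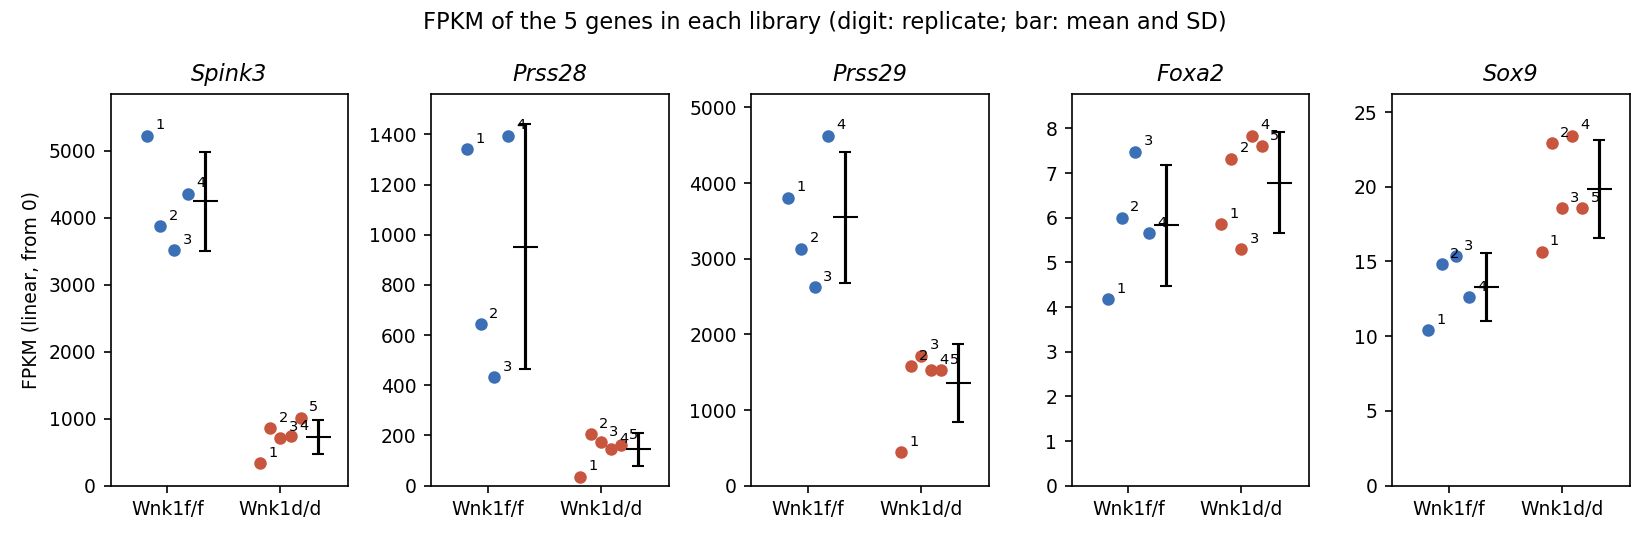
FPKM of the 5 genes in each library, on a linear axis from 0 for each gene, with the 4 Wnk1f/f libraries in blue and the 5 Wnk1d/d libraries in red, replicate numbers beside the points and black bars for the mean and SD. The Wnk1d/d points of Spink3, Prss28 and Prss29 lie below all Wnk1f/f points, with Wnk1d/d replicate 1 lowest (332, 35.6 and 439 FPKM), those of Foxa2 overlap with Wnk1f/f, and those of Sox9 lie above, from 15.66 FPKM.

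The order of the 5 levels by mean was *Spink3*, *Prss29*, *Prss28*, *Sox9*, *Foxa2* in Wnk1f/f and *Prss29*, *Spink3*, *Prss28*, *Sox9*, *Foxa2* in Wnk1d/d. In Wnk1f/f the ranges of *Spink3* and *Prss29* overlapped, and *Spink3* was above *Prss29* in 3 of 4 libraries. In Wnk1d/d these ranges overlapped as well, but *Prss29* was above *Spink3* in 5 of 5 libraries. The other neighbours did not overlap in either genotype.

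Ratios taken within a library do not depend on its scaling, and they showed that the 3 products did not differ by 1 shared factor. The ratio of *Prss29* to *Prss28* was 2.84, 4.88, 6.07 and 3.32 in Wnk1f/f replicates 1 to 4 and 12.3, 7.66, 9.97, 10.5 and 9.37 in Wnk1d/d replicates 1 to 5. It averaged 4.28 ± 1.48 (SD, n = 4) and 9.96 ± 1.7 (SD, n = 5), so the paired genes stood further apart in each Wnk1d/d library than in any Wnk1f/f library. The ratio of *Spink3* to *Prss29* was 1.22 ± 0.196 (SD, n = 4) in Wnk1f/f, with a range of 0.943 to 1.37, and 0.573 ± 0.137 (SD, n = 5) in Wnk1d/d, with a range of 0.418 to 0.756.

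The ratio between the transcription factors differed less. The ratio of *Sox9* to *Foxa2* was 2.31 ± 0.209 (SD, n = 4) in Wnk1f/f and 2.95 ± 0.411 (SD, n = 5) in Wnk1d/d, and the ranges overlapped (2.05 to 2.49 and 2.44 to 3.51). Products and factors together were compared by the mean log2(FPKM + 1) of the 3 products minus that of the 2 factors. This difference was 8.61, 7.56, 7.07 and 8.32 in Wnk1f/f replicates 1 to 4 and 4.03, 5.54, 5.75, 5.22 and 5.61 in Wnk1d/d replicates 1 to 5. Each Wnk1d/d library was below each Wnk1f/f library, and the means of 7.89 ± 0.70 (SD, n = 4) and 5.23 ± 0.70 (SD, n = 5) were 2.66 apart on the log2 scale. In FPKM, *Spink3* was 471 to 1254 times *Foxa2* in Wnk1f/f and 56.7 to 136 times *Foxa2* in Wnk1d/d libraries.

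**Figure D2:**
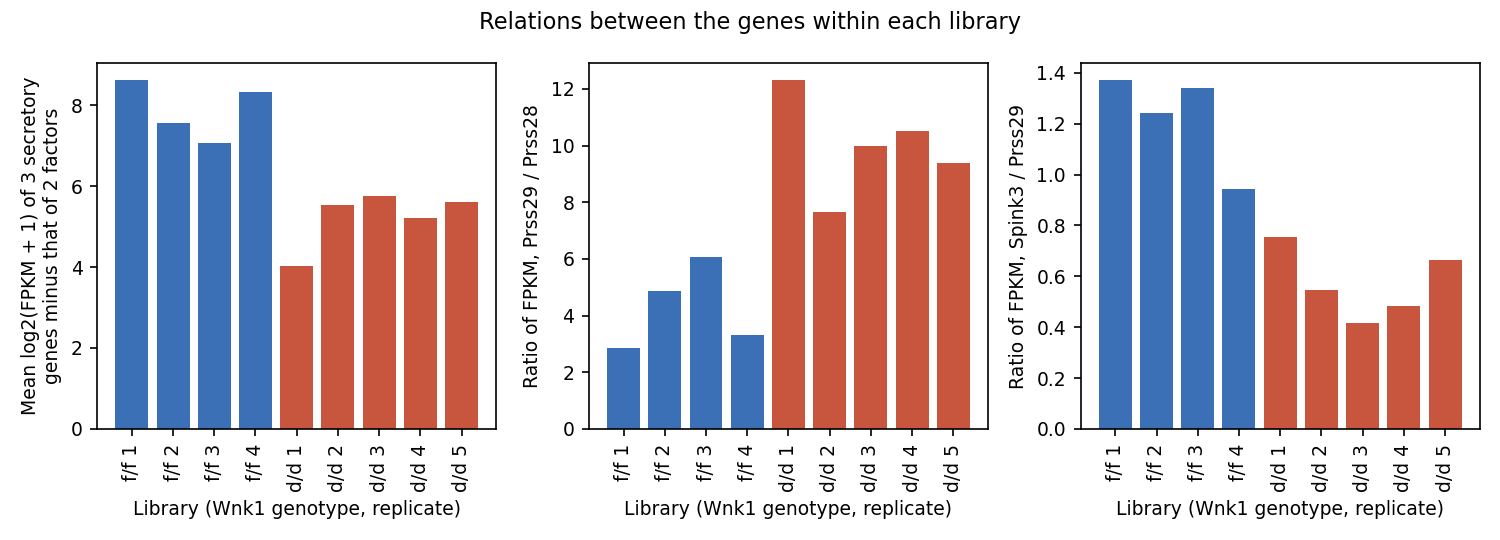
Bars give, for each of the 9 libraries (blue Wnk1f/f, red Wnk1d/d), the mean log2(FPKM + 1) of the 3 secretory genes minus that of the 2 transcription factors (left), the ratio of Prss29 to Prss28 FPKM (middle) and the ratio of Spink3 to Prss29 FPKM (right), all from 0. No panel shows overlap of the genotypes: the left bars are 7.07 or more in Wnk1f/f and 5.75 or less in Wnk1d/d, and the middle bars are 6.07 or less in Wnk1f/f and 7.66 or more in Wnk1d/d.

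The spread among Wnk1d/d mice in the secretory products came mainly from 1 mouse. The SD of log2(FPKM + 1) within Wnk1d/d was 0.62 for *Spink3*, 1.01 for *Prss28* and 0.83 for *Prss29*, values that exceed those of 97.3%, 99.1% and 98.6% of the genes tested. Without Wnk1d/d replicate 1 these SDs were 0.23, 0.21 and 0.08, above 76.2%, 71.4% and 19.0% of genes. In Wnk1f/f they were 0.25, 0.83 and 0.35, above 76.1%, 97.9% and 87.9% of genes, so *Prss28* was the most variable of the 5 genes there. *Foxa2* had SDs of 0.29 in Wnk1f/f and 0.22 in Wnk1d/d, above 82.8% and 72.1% of genes, and *Sox9* had SDs of 0.24 and 0.23, above 74.8% and 75.2% of genes.

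In Wnk1f/f the order of the mice was alike within each class of genes. Replicates 4 and 1 were the highest and replicate 3 the lowest for both *Prss28* and *Prss29*, and *Spink3* had the same upper pair and the same lowest mouse. *Foxa2* and *Sox9* shared another order, with replicate 3 the highest and replicate 1 the lowest. In Wnk1d/d, replicate 1 was the lowest for all 3 products, but the highest mouse differed among them (replicate 5 for *Spink3*, 2 for *Prss28* and 3 for *Prss29*). *Foxa2* and *Sox9* were both highest in Wnk1d/d replicate 4 and had different lowest mice, replicate 3 and replicate 1.

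As a measure of likeness, Pearson's r of log2(FPKM + 1) was taken over the 9 libraries after each genotype was centred on its mean, so that the difference between the genotypes does not enter. It was 0.95 for *Prss28* with *Prss29*, 0.90 for *Spink3* with *Prss28* and with *Prss29*, and 0.80 for *Foxa2* with *Sox9*. Between the classes it was -0.16 to 0.34. Without Wnk1d/d replicate 1, a choice made after the values were seen, it was 0.92 for *Prss28* with *Prss29* and 0.81 for *Foxa2* with *Sox9* over 8 libraries. *Spink3* then stood at 0.67 with *Prss28* and 0.42 with *Prss29*, and the 6 values between products and factors were -0.36 to -0.69. The likeness of *Spink3* to the proteases thus depended in part on 1 library. The points share their libraries and genotype centring, and r is a description.

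**Figure D3:**
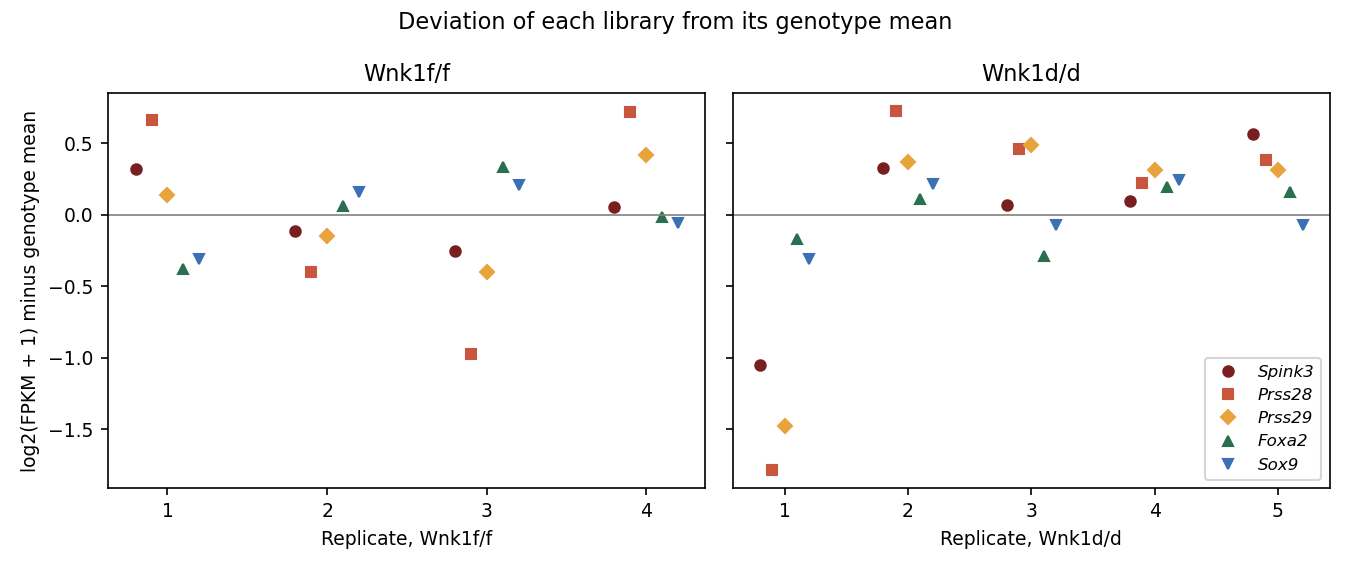
Each point is the log2(FPKM + 1) of a gene in a library minus the mean of its genotype, for the 4 Wnk1f/f replicates (left) and the 5 Wnk1d/d replicates (right), with circles, squares and diamonds for Spink3, Prss28 and Prss29 and triangles for Foxa2 and Sox9. The products of Wnk1d/d replicate 1 lie furthest below 0, and in Wnk1f/f replicates 1, 2 and 3 the products and the factors lie on opposite sides of 0.

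Genes whose libraries ordered most like those of each gene, by the same measure among 14728 genes, were *Map3k12*, *Adarb1*, *Krt81*, *Tecpr1* and *Kcp* for *Spink3* (r 0.95 to 0.97), *Phf21b*, *Inf2* and *Gm17745* for *Prss28* (r 0.97 to 0.98), and *Map1s*, *Trim3*, *Homer3*, *Ipo4* and *Rps6kb2* for *Prss29* (r 0.97). For *Foxa2* they were *Bbs1*, *Gemin8*, *C1qtnf1*, *Cutal* and *Il6st* (r 0.89 to 0.94), and for *Sox9* they were *Wnt6*, *4931406C07Rik*, *C430049B03Rik*, *Myo10* and *Tusc5* (r 0.92 to 0.95). These r values include Wnk1d/d replicate 1, which set most of the spread of the products in Wnk1d/d. They were not taken without it, so the genes named for the products may share little beyond that library. *Il6st* encodes the signalling receptor subunit of the LIF family and was at 107 FPKM in Wnk1f/f and 118 FPKM in Wnk1d/d. *Wnt6*, which encodes a WNT ligand, was lower in Wnk1d/d (5.50 against 1.45 FPKM, log2 difference -1.43, limma adjusted p = 0.0048) while *Sox9* was higher, and the genes named here as most like the 3 products had log2 differences of -0.49 to 0.15.

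Genes outside the 5 were tested with limma on log2(FPKM + 1), and a gene was called when its Benjamini-Hochberg adjusted p over 14728 genes was under 0.05 and its mean FPKM differed at least 1.5-fold. By this rule 10.3% of the genes were called, 5.09% as higher and 5.18% as lower in Wnk1d/d, and the median log2 difference over all genes was 0.00. Where a pair of means is given, Wnk1f/f comes first and Wnk1d/d second.

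Of 8 other genes known from uterine glands, 2 were called, *Lif* and *Aldh1a1*, both higher in Wnk1d/d. *Lif*, the cytokine from glands that implantation requires, was at 1.7, 3.17, 3.38 and 2.45 FPKM in Wnk1f/f replicates 1 to 4 and at 8.50, 5.60, 7.94, 7.92 and 8.86 FPKM in Wnk1d/d replicates 1 to 5. Each Wnk1d/d library was above each Wnk1f/f library, so *Lif* and *Spink3* differed in opposite directions in the same mice. The means were 2.67 ± 0.762 FPKM (SD, n = 4) and 7.76 ± 1.27 FPKM (SD, n = 5), a ratio of 2.90 (log2 difference 1.27, standard error 0.16, limma adjusted p = 0.0027).

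*Aldh1a1*, which encodes a retinaldehyde dehydrogenase, was at 4.5 to 6.83 FPKM in Wnk1f/f and 12 to 14.77 FPKM in Wnk1d/d, again without overlap. Its means were 5.86 ± 0.985 FPKM (SD, n = 4) and 13.6 ± 1.30 FPKM (SD, n = 5), a ratio of 2.32 (log2 difference 1.10, limma adjusted p = 0.0014). *Cldn10*, a tight-junction claudin found in gland epithelium, also did not overlap between the genotypes (278 ± 8.97 FPKM, n = 4, and 404 ± 41.7 FPKM, n = 5, limma adjusted p = 0.0064), but its ratio of 1.45 was under the 1.5-fold limit.

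The remaining 5 gland genes did not pass the test. *Sox17*, a SOX factor of gland and endothelium, had 86.5 ± 20.7 FPKM (SD, n = 4) and 92.5 ± 9.73 FPKM (SD, n = 5), and *Prom1*, an apical membrane protein, had 60.0 ± 13.7 and 59.6 ± 8.87 FPKM. *Wfdc3* had means of 10.9 and 12.4 FPKM, *Cxcl15*, a chemokine made by glands, 1.46 and 2.64 FPKM (called higher under 1 alternative, limma with library weights), and *Ttr*, which the liver also makes, 6.44 and 4.0 FPKM. *Ttr* was at 12.5 FPKM in Wnk1f/f replicate 4, which stood apart in liver transcripts, and at 2.64 to 5.93 FPKM in the other Wnk1f/f libraries. Over all 8 genes the median log2 difference was 0.38, 7 of 8 differences were above 0, and the summed level was 415 to 499 FPKM in Wnk1f/f and 539 to 634 FPKM in Wnk1d/d libraries. Most of this sum was *Cldn10*, at 267 to 289 FPKM in Wnk1f/f and 339 to 451 FPKM in Wnk1d/d.

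Of 18 markers of epithelium in general, 5 were called, all higher, and 16 of 18 log2 differences were above 0, with a median of 0.34. The called genes included *Elf3*, an epithelial ETS factor (means 25.5 and 52.9 FPKM, log2 difference 1.02, limma adjusted p = 0.032), and *Krt7*, a keratin of simple epithelia (means 104 and 193 FPKM, log2 difference 0.87, limma adjusted p = 0.042). These calls were close to the threshold, and the count was 1 when any of Wnk1f/f replicates 1 and 4 or Wnk1d/d replicates 1 and 3 was left out.

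The mean log2(FPKM + 1) of the 18 epithelial markers was 5.75, 6.13, 5.91 and 5.69 in Wnk1f/f replicates 1 to 4 and 6.58, 6.37, 6.29, 6.04 and 5.93 in Wnk1d/d replicates 1 to 5. It was thus highest in Wnk1d/d replicate 1, the mouse with the lowest secretory products. Set against this mean, *Foxa2* was at -3.12 ± 0.27 (log2, SD, n = 4) in Wnk1f/f and -3.29 ± 0.44 (n = 5) in Wnk1d/d, and *Sox9* at -2.05 ± 0.17 and -1.88 ± 0.42, with overlap for both. *Spink3* was at 5.79 to 6.60 above the epithelial mean in Wnk1f/f and 1.80 to 4.06 above it in Wnk1d/d, without overlap. The part of epithelial RNA in the levels of the 5 genes was not tested. Of 4 markers of luminal epithelium, *Calb1*, which encodes a calcium-binding protein, was called (23.1 ± 18.4 FPKM, n = 4, and 77.6 ± 42.8 FPKM, n = 5, limma adjusted p = 0.047), with overlap of the genotypes, and leaving out any library but Wnk1f/f replicate 2 ended this call.

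**Figure D4:**
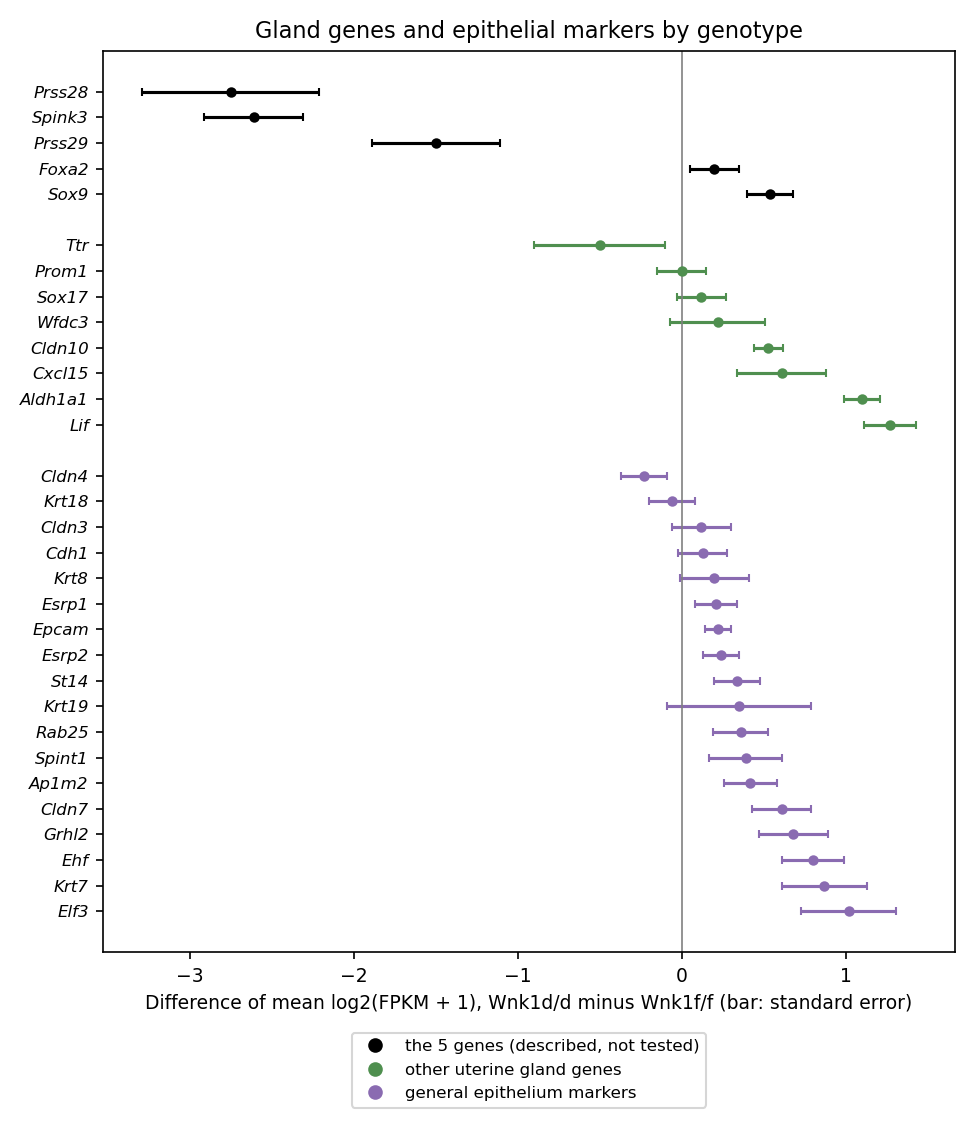
Difference of mean log2(FPKM + 1), Wnk1d/d minus Wnk1f/f, with its standard error, for the 5 genes (black), 8 other uterine gland genes (green) and 18 epithelial markers (purple). The 3 secretory products lie at -1.5 or below, whereas Lif (1.27) and Aldh1a1 (1.10) lie at the upper end and the epithelial markers between Cldn4, below 0, and Elf3 (1.02).

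Markers of other uterine cell types were also called, and their part in the levels of the 5 genes was not tested. All 7 smooth muscle markers were called higher (median log2 difference 1.17, summed 2968 to 6681 FPKM in Wnk1f/f and 7491 to 14104 FPKM in Wnk1d/d), among them *Actg2*, a smooth muscle actin (means 619 and 2378 FPKM), and *Cnn1*, or calponin (314 and 819 FPKM). The count was 4 without Wnk1f/f replicate 2 or 4 or Wnk1d/d replicate 3, 4 or 5, where *Myh11*, *Smtn* and *Tagln* were not called. All 5 endothelial markers were called lower (median log2 difference -0.77, summed 253 to 276 and 97.1 to 207 FPKM), with *Vwf*, or von Willebrand factor, at 40.7 and 19.4 FPKM and *Cdh5*, or VE-cadherin, at 87.8 and 44.5 FPKM. The count was 3 without Wnk1f/f replicate 1, 2 or 4 or Wnk1d/d replicate 1 or 3, where *Pecam1* and *Kdr* were not called. Of 7 stromal markers *Col1a1*, a collagen, was called higher (319 and 619 FPKM), and *Pdgfra*, a growth factor receptor (65.5 and 37.7 FPKM), and *Hoxa11*, a homeobox factor (221 and 148 FPKM), were called lower. The 4 leukocyte markers summed to 45.2 to 88.7 FPKM in Wnk1f/f and 35.8 to 65.3 FPKM in Wnk1d/d.

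Genes of tissues that share products with glands were looked at for RNA from elsewhere. *Amy2a5*, *Prss1* and *Clps*, which encode the amylase, trypsin and colipase of the pancreas, were listed at 0 in all 9 libraries, and 8 of the other 9 pancreatic acinar genes were at 1.19 FPKM or less. *Cela1*, an elastase that is not limited to the pancreas, was the exception (7.85 and 13.3 FPKM by mean, limma adjusted p = 0.023, not called without Wnk1f/f replicate 3 or 4 or Wnk1d/d replicate 3 or 5). The 6 seminal vesicle genes were at 0.13 FPKM or less in every library. Of 5 oviduct genes, *Ovgp1*, or oviductin, was called higher (11.3 ± 2.17 FPKM, n = 4, and 52.6 ± 19.5 FPKM, n = 5, log2 difference 2.07, limma adjusted p = 0.0021), and the other 4, which include the ciliary genes *Foxj1* and *Tekt1*, were at 1.13 FPKM or less in every library. The 5 markers of squamous epithelium were at 1.46 FPKM or less.

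Of 11 other tryptase cluster genes 5 passed the filter on low values, and 2 of these were called, both higher in Wnk1d/d. *Prss41*, another protease of the cluster, had means of 2.75 and 2.09 FPKM and was not called. *Tpsab1*, a mast cell tryptase, was at 3.22 ± 0.456 FPKM (SD, n = 4) and 6.68 ± 1.87 FPKM (SD, n = 5; log2 difference 0.84, limma adjusted p = 0.0099), and *Prss33* was at 0.660 and 1.14 FPKM by mean (limma adjusted p = 0.048), a call lost when any library but Wnk1d/d replicate 1 was left out. The summed level of the 11 genes was 15.8 to 18.4 FPKM in Wnk1f/f and 20.2 to 46.6 FPKM in Wnk1d/d, below that of *Prss29* alone in every library. *Prss22* had the largest difference among them (0.81 to 5.19 FPKM in Wnk1f/f, 2.48 to 21.75 FPKM in Wnk1d/d, log2 difference 1.44, limma adjusted p = 0.074). It was not called, but was called higher with library weights and without Wnk1d/d replicate 2. Of 6 mast cell markers 4 were called, all higher, including *Cma1*, or mast cell chymase (means 6.54 and 12.9 FPKM, limma adjusted p = 0.0014), and *Cpa3*, or carboxypeptidase A3 (4.13 and 8.07 FPKM, limma adjusted p = 0.025, not called without Wnk1d/d replicate 1, 3 or 5). *Tpsab1* belongs to both lists, and the direction of these calls was opposite to that of *Prss28* and *Prss29*.

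Among 14 tested serine proteases from other families, 3 were called higher and 2 lower. *Prss23*, a secreted protease (means 85.4 and 148 FPKM, not called without Wnk1f/f replicate 4), and *Plau*, the urokinase plasminogen activator (9.76 and 17.0 FPKM), were higher. *Prss35*, a protease-like gene, was at 4.28 ± 2.86 FPKM (SD, n = 4) and 0.862 ± 0.325 FPKM (SD, n = 5), which was 4.96-fold lower in Wnk1d/d (log2 difference -1.38, limma adjusted p = 0.015), and *Klk8*, a kallikrein, was at 3.35 and 1.86 FPKM by mean (limma adjusted p = 0.022).

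*Spink3* was the only abundant gene of its family here. The 10 other Spink genes reached at most 1.84 FPKM in any library, and *Spink6*, *Spink7*, *Spink11* and *Spink14* were listed at 0 in all 9. Of 12 tested inhibitors from other families, *A2m*, which encodes the broad protease inhibitor alpha-2-macroglobulin, was called higher, and *Serpina3n*, a serpin, was called lower. *A2m* was at 1.13 ± 0.550 FPKM (SD, n = 4) and 19.7 ± 5.25 FPKM (SD, n = 5), a ratio of 17.5 (log2 difference 3.28, standard error 0.21, limma adjusted p = 0.0002), and *Serpina3n* at 92.2 ± 9.02 and 54.9 ± 10.7 FPKM (limma adjusted p = 0.0096).

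*Foxa2* was likewise the expressed member of its family, with *Foxa1* at 0.03 FPKM or less and *Foxa3* at 0.16 FPKM or less in every library. Of 8 tested genes among the other FOXA and SOX factors, *Sox7*, an endothelial SOX factor, was called (13.1 ± 3.16 FPKM, n = 4, and 27.0 ± 7.46 FPKM, n = 5, higher in Wnk1d/d, limma adjusted p = 0.016), and the median log2 difference was -0.17.

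Of 26 genes with known roles in gland development, all tested, 1 was called higher and 6 lower, and the median log2 difference was -0.02. The count of genes called lower was 1 to 9 when a library was left out, lowest without Wnk1d/d replicate 3 and highest without Wnk1d/d replicate 2, and it was 2 without Wnk1f/f replicate 4 or Wnk1d/d replicate 1 and 3 without Wnk1f/f replicate 1 or Wnk1d/d replicate 5. *Msx2*, a homeobox factor, was higher (means 1.02 and 1.88 FPKM, limma adjusted p = 0.025). *Fgf10*, a growth factor from stroma, was at 2.14 ± 0.157 FPKM (SD, n = 4) and 0.892 ± 0.260 FPKM (SD, n = 5), 2.40-fold lower in Wnk1d/d (limma adjusted p = 0.0055), and *Lef1*, a nuclear partner of WNT signalling, was at 24.2 and 14.6 FPKM by mean (limma adjusted p = 0.044). The others called lower were *Axin2*, *Rspo3*, *Hoxa11* and *Igf1*. The call of *Lef1* was lost when any library but Wnk1f/f replicate 4 or Wnk1d/d replicate 4 was left out, and that of *Msx2* was lost without Wnk1f/f replicate 1, Wnk1d/d replicate 3 or Wnk1d/d replicate 4. The calls of *Hoxa11*, *Igf1*, *Axin2* and *Rspo3*, whose means differed 1.5-fold to 1.54-fold, sat at the edge of the 1.5-fold limit, and each was lost without any of 3 to 5 single libraries, Wnk1f/f replicate 4 and Wnk1d/d replicate 3 in every case.

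*Prss28*, *Prss29* and *Spink3* are regarded as progesterone-responsive, and 16 other genes that progesterone induces in uterus were therefore set beside them. Of the 15 tested, 4 were called, all lower in Wnk1d/d, and the median log2 difference was -0.01. *Hoxa10*, *Nr2f2* and *Hand2* were also lower without overlap (limma adjusted p = 0.0062, 0.0066 and 0.029). Their ratios of 0.684, 0.781 and 0.677 did not reach the 1.5-fold limit. The count called lower was 3 to 6 when a library was left out. The largest difference of the list ran the other way, in *Irg1* (40.9 ± 35.2 and 114 ± 49.1 FPKM, log2 difference 1.86, limma adjusted p = 0.071). *Irg1* overlapped between the genotypes and was called higher only without Wnk1f/f replicate 3 or Wnk1d/d replicate 2. *Il13ra2*, a decoy receptor for interleukin 13, was at 34.1 ± 8.17 FPKM (SD, n = 4) and 18 ± 2.43 FPKM (SD, n = 5; log2 difference -0.86, limma adjusted p = 0.0074), and *Fst*, or follistatin, an activin antagonist, was at 23.3 ± 3.37 and 13.3 ± 3.8 FPKM (log2 difference -0.80, limma adjusted p = 0.02). *Calca*, a calcitonin gene, and *Hoxa11* were the others called lower, and *Calca* was not called without Wnk1f/f replicate 1, 2 or 3 or Wnk1d/d replicate 4. *Ihh*, the hedgehog ligand that the epithelium makes under progesterone, was at 17.0 ± 12.1 FPKM (SD, n = 4) and 20.9 ± 14.1 FPKM (SD, n = 5), a difference smaller than its spread.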

How the data were processed

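RNA was taken from whole uterus of 4 Wnk1f/f and 5 Wnk1d/d mice on pseudopregnancy day 4.5. The authors aligned paired-end reads of 75 bases to mm10 (TopHat2 2.0.4 and Cufflinks 2.0.2 in the submitters' processing notes) and deposited 1 table of FPKM for 9 libraries. Strand use and the gene annotation are not given in the sources used here. Columns were matched to mice by the labels.

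FPKM was used as deposited. Genes with a mean above 1 FPKM in at least 1 genotype (14728) were fitted unpaired with limma 3.58.1 in R 4.3.3 (trend) on log2(FPKM + 1), which understates differences of low genes, with Benjamini-Hochberg adjustment. Calls required a 1.5-fold ratio of means and adjusted p below 0.05. The fit was tested on simulated data. The 5 genes were part of the fit of all genes and of its counts, but no p or call is given for them. Their choice, and that of the gene lists, was made with earlier results of these data known. Named genes are the 5, every gene of the other gland list, up to 2 called each way in other lists, and the 5 most like each gene, with further genes named after their values were seen. Results for some genes that this rule selects are not shown here. Sequences came from RefSeq (GRCm38.p6) and positions from GENCODE M21, both mm10, by symbol, and were compared with Biopython 1.88. Alternatives were other pseudocounts, filters, scalings, limma settings and fold limits, a replicate block and leaving out each library; ratios, spread and likeness without Wnk1d/d replicate 1, and list counts without each library, were added after the data were seen. Mice are separate animals, and no batch is given in the labels.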

Additional observations from a re-analysis of the deposited data

Results flagged for a closer look

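In groups of 4 or 5 libraries, the highest and lowest values were compared with the rest by Dixon's ratio of the gap to the range, over 46 combinations of quantity and genotype, of which 3 passed the 95% critical value. Chance passes about 1 in 20. *Prss29* in Wnk1d/d was lowest in replicate 1, at 439 FPKM, where the nearest library was at 1525 FPKM and the highest at 1719 FPKM (gap over range 0.849, critical value 0.71). The summed FPKM of *Spink3*, *Prss28* and *Prss29* was lowest in the same mouse, at 807 FPKM against 2407 to 2704 FPKM in the other Wnk1d/d libraries (gap over range 0.843). These values share *Prss29* and are not independent of each other. *Lif* in Wnk1d/d was lowest in replicate 2, at 5.60 FPKM, with the nearest library at 7.92 FPKM (gap over range 0.712), and this value was still above the highest Wnk1f/f library.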

How the results depend on the processing

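The log2 differences of the 5 genes kept their sign, and moved by less than the SD of log2(FPKM + 1) pooled within both genotypes (0.49, 0.94, 0.67, 0.25 and 0.23 in the order below), under each alternative run on them. Leaving out each library gave -2.75 to -2.35 for *Spink3*, -3.08 to -2.31 for *Prss28*, -1.63 to -1.13 for *Prss29*, 0.07 to 0.31 for *Foxa2* and 0.44 to 0.62 for *Sox9*, and -2.93 to -2.36 for products minus factors. For *Foxa2* the pooled SD of 0.25 exceeded the difference itself (0.20), so on size even a loss of the whole difference would have passed. The 1513 calls over all genes became 550 with a fold limit of 2 and 1019 (without Wnk1d/d replicate 3) to 1870 (without Wnk1d/d replicate 2) when a library was left out. The count of other gland genes called was 2 to 3 with a library left out, where the third was *Cldn10*, without Wnk1d/d replicate 5, and it was 3 with library weights, where the third was *Cxcl15*. The count of epithelial markers called, 5 in the report, was 1 without a filter on low values, 3 with quantile normalization, 3 with library weights and 1 to 4 with a library left out. The cause of these changes was not tested.

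The replicate numbers shared by the genotypes belong to different mice and do not pair them: deviations of same-numbered mice correlated at -0.27 to 0.02 over genes, and no Wnk1f/f mouse correlated best with its own number. With a replicate block, 218 genes were called by limma (132 higher, 86 lower), as were 1 of the other gland genes (*Aldh1a1*) and 0 epithelial markers, of which 10 had an unadjusted p under 0.05. Wnk1d/d replicate 5 has no Wnk1f/f mouse of the same number, so the block in effect left it out. The block also uses up degrees of freedom, so the lower count does not measure pairing alone. Depth limits what can be said of genes near or below 1 FPKM, since the number of fragments behind them is unknown.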
